A study of Mus musculus with 9 samples.

Results

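The genes described here are Aurka and Aurkb, which encode the Aurora A and Aurora B kinases, Birc5, which encodes survivin, and Bub1b, which encodes the checkpoint protein BubR1. They are 4 of the 7117 genes that the platform annotation names for probes of the array. They were chosen by symbol, with ratios of these same arrays known, so their values at 15 days are a description without a test. Aurka, Aurkb and Birc5 had 1 probe each and Bub1b had 2 probes, 5 of the 9604 probes with exactly 1 gene.

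Whole-testis total RNA of Spo11-/- mice was hybridised against that of wild-type mice on 2-colour spotted cDNA arrays, on which both RNAs bind side by side. The series has 4 arrays with mice of 15 days and 5 arrays with mice of 12 days, each with 1 knockout and 1 wild-type sample, and replicates are numbered here in order of deposit. Spo11 encodes the topoisomerase-like enzyme that makes the DNA breaks of meiotic recombination, and a mouse without it forms no such breaks in any cell. The strain, the construction of the allele and any pooling of animals were not given in the sources used here. The design text speaks of mouse pairs that shared a litter, hybridised in quadruplicate, while 5 arrays carry the age of 12 days. If arrays of 1 age shared RNA, p-values at that age measure technical spread in part. This holds for the 4 arrays of 15 days, on which all calls rest, as it does for those of 12 days. No probe was annotated to Spo11 alone, so the knocked-out gene gives no check of the labels.

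Aurora A sits at centrosomes and spindle poles, where it drives spindle assembly. Aurora B is the kinase of the chromosomal passenger complex, in which survivin and its partners INCENP and borealin bring it to the inner centromere, where it releases faulty attachments of chromosomes to microtubules. BubR1 is a part of the spindle checkpoint, which holds back the anaphase promoting complex until every chromosome is attached. In the juvenile testis these genes serve the mitoses of spermatogonia and, later, the meiotic divisions of spermatocytes. Transcription of many genes of this kind peaks in the G2 and M phases of the cell cycle, through promoter elements known as CHR and CCAAT boxes.

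Promoter windows of 250 bases before and 50 bases after the annotated start were taken for 3 of the genes from RefSeq, build GRCm38.p6, to show which of them hold these elements. The letters searched were TTTGAA for the CHR and CCAAT for the CCAAT box, on both strands (TTCAAA and ATTGG on the other), which do not overlap each other. Capitals mark every match. The windows are chr2:172370521-172370820 on the minus strand for Aurka, chr2:118597961-118598260 on the plus strand for Bub1b and chr11:117848987-117849286 on the plus strand for Birc5, each printed 5′ to 3′ in the direction of the gene. The Aurka and Bub1b windows belong to starts inside the annotated gene spans and not to their outermost starts.
Aurka: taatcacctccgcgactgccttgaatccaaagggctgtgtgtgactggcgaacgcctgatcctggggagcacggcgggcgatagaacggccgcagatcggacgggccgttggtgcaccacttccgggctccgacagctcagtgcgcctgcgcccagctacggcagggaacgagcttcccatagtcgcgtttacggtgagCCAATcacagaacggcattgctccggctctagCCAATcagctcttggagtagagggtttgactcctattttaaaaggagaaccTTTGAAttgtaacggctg
Bub1b: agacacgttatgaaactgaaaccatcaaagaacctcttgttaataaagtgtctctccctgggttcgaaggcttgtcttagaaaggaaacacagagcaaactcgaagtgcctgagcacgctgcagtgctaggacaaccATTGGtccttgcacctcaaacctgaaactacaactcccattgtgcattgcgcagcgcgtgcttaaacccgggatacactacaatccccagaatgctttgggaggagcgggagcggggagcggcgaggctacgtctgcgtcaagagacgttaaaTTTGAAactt
Birc5: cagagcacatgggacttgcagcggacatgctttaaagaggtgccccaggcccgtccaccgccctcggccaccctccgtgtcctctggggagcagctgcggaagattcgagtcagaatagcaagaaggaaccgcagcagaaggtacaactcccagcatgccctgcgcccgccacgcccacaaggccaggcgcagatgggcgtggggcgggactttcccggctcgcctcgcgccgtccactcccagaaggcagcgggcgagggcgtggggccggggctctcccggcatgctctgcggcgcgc
The Aurka window held TTTGAA at position 33 after the start and CCAAT at 51 and 19 bases before it. The Bub1b window held TTTGAA at position 41 after the start and ATTGG, the CCAAT box of the other strand, 113 bases before it. The Birc5 window held neither set of letters, and the promoter of Aurkb was not analysed here. TTTGAA or TTCAAA occurred in 17.9% of the 32851 promoter windows of the table, CCAAT or ATTGG in 37.4%, and both together in 6.95%. Among 146 windows of 117 genes of the mitotic lists described below, 36.3% held the first and 52.1% the second. A match is a run of letters and not a measured site.

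The direction of the deposited ratios is not settled. Knockout RNA carried the dye Cy3 on all 4 arrays at 15 days, and at 12 days it carried Cy5 on replicates 1, 4 and 5 and Cy3 on replicates 2 and 3. Arrays of the same dye orientation from the 2 ages correlated at r = -0.38 to -0.11 across probes, although the RNAs were labelled alike. Among the 12-day arrays, r was 0.0044 to 0.29 (mean 0.13) between opposite dye orientations and -0.13 to 0.45 (mean 0.15) between like ones. The deposited values thus do not show the turned dyes there either. The direction at 12 days rests on the labelled dyes and on an assumed order of the channels in the ratio. Values at 15 days are therefore given as deposited. Under the first reading, called the label reading here, ratios are taken as Cy5 over Cy3 at both ages. A 15-day value above 0 then means less RNA in the knockout. The labels give only the dye of the knockout, so this order of the channels is an assumption. Under the second, the turned reading, the 15-day sign is reversed and a 15-day value above 0 means more RNA in the knockout. Values at 12 days are given as deposited and, by the label reading, as knockout over wild type. As knockout had the same dye on the 4 arrays of 15 days, dye and genotype cannot be told apart there. Between 72.1% and 91.3% of the 16128 probes had a value on an array, and all 5 probes of the 4 genes had a value on all 9 arrays. Intensities were not used here, so levels, signal over background and the presence of testis markers could not be examined. Precision is limited by how few arrays there are.

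At 15 days Aurkb lay far above 0, while Aurka, Birc5 and Bub1b lay below it. Aurkb had log2 ratios of 1.04, 1.74, 1.50 and 0.09 on replicates 1 to 4. It was high on the first 3 arrays, at the 98.5th to 99.8th percentile of all features, and close to 0 on replicate 4, at the 63.3rd percentile. The mean was 1.09 ± 0.73 (SD, n = 4), a 2.13-fold ratio, and Aurkb ranked 8th from the highest of 6958 genes. Without replicate 4 the mean was 1.43, and without replicate 2 it was 0.88. The Aurkb spot stands 21st in the probe order, and the median of the neighbouring spots lay between -0.075 and 0.23 on the 4 arrays, and after its subtraction the mean was 1.03. RefSeq lists a pseudogene copy of Aurkb, Gm5307, whose transcripts could bind the same spot, and its part in the ratio was not tested.

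Aurka, the other Aurora kinase gene, had log2 ratios of -0.32, -0.07, -0.95 and -0.27 at 15 days. The sign was the same on the 4 arrays, but replicate 3 lay far lower than the rest, at the 1.03rd percentile of that array, and replicate 2 hardly left 0. The mean was -0.40 ± 0.38 (SD, n = 4), or 1.32-fold. It moved to -0.22 without replicate 3. The neighbouring spots had a median of -0.37 on that array, and subtracting it brought replicate 3 to -0.58 and the mean to -0.26. The values of Aurka and Aurkb did not overlap at 15 days.

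Birc5 had the most even values of the 4 genes at 15 days, with log2 ratios of -0.32, -0.47, -0.45 and -0.36. All 4 arrays lay within 0.15 of each other. The mean was -0.40 ± 0.072 (SD, n = 4), a 1.32-fold ratio like that of Aurka but with the smallest SD of the 4 genes. Survivin binds Aurora B in the passenger complex, and on none of the 4 arrays did the ratios of Birc5 and Aurkb have the same sign.

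Bub1b lay lowest. The mean of its 2 probes was -0.695, -0.76, -0.545 and -0.44 on replicates 1 to 4, or -0.61 ± 0.14 (SD, n = 4), a 1.53-fold ratio, and the rank was 157th from the lowest of 6958 genes. The first probe gave -0.69, -0.91, -0.28 and -0.28. The second gave -0.70, -0.61, -0.81 and -0.60. Both probes were below 0 on every array, and their means of -0.54 and -0.68 differed by less than the SD of the first. The arrays on which the first probe lay closest to 0, replicates 3 and 4, had neighbouring spots with a median above 0 (0.445 and 0.16 averaged over both probes). After subtraction of these medians Bub1b lay at -0.60, -0.70, -0.99 and -0.60.

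Across all 12198 features tested at 15 days with limma, 12.4% passed an adjusted p under 0.05, 7.05% above 0 and 5.37% below 0. Of the 6958 genes among these features, 11.2% passed, 4.04% above 0 and 7.2% below 0. The 860 features above and 655 below became 738 and 847 with quantile normalization and 888 and 964 with the local median subtracted. Because the 4 genes were picked with these ratios in view, nothing is read from where they stand against those shares.

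**Figure D1:**
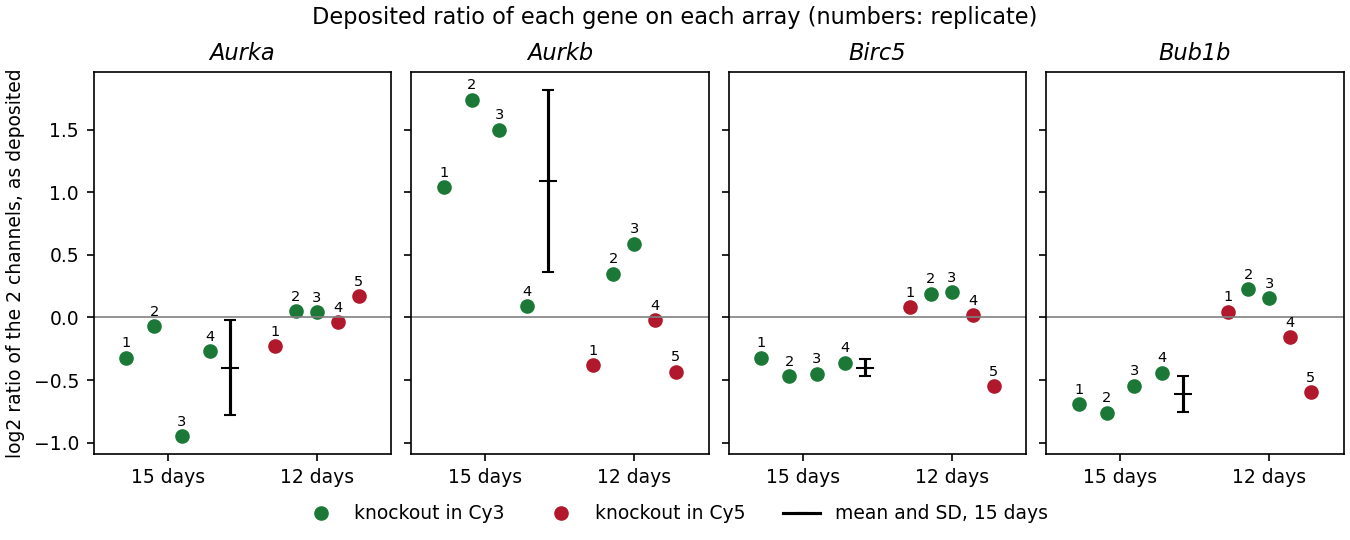
Log2 ratio of the 2 channels as deposited (y axis) for Aurka, Aurkb, Birc5 and Bub1b on the 4 arrays at 15 days and the 5 arrays at 12 days, with the replicate number beside each point, coloured by the dye of the knockout RNA, and with the mean and SD at 15 days. Aurkb is above 0 and the other 3 genes are below 0 on all 4 arrays at 15 days, and at 12 days Aurkb is above 0 with knockout in Cy3 and below 0 with knockout in Cy5.

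At 12 days the 4 genes gave smaller ratios, and Aurkb was the only one whose sign followed the dye of the knockout on all 5 arrays. With knockout in Cy5 the deposited log2 ratio of Aurkb was -0.38, -0.02 and -0.434 on replicates 1, 4 and 5. With knockout in Cy3 it was 0.35 and 0.59 on replicates 2 and 3. By the label reading, Aurkb was thus lower in the knockout on 5 of 5 arrays, by little on replicate 4. The neighbouring spots had a median of -0.02 on replicate 4, and after its subtraction Aurkb lay at 0 there. The limma coefficient, knockout over wild type with a dye term, was -0.37 (SE 0.095, 1.30-fold), and the dye term was 0.096. It did not pass over all features (limma adjusted p = 1.0, and 0.534 to 1.0 over all settings tried). With the 5 deposited values taken without turning any array, as the correlations between the 12-day arrays leave possible, the mean was 0.021 for Aurkb, -0.0020 for Aurka, -0.012 for Birc5 and -0.067 for Bub1b.

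Aurka stayed near 0 at 12 days. Its deposited log2 ratios were -0.23, -0.04 and 0.17 with knockout in Cy5 and 0.05 and 0.04 with knockout in Cy3. The knockout coefficient was -0.039 (SE 0.075), and 0.010 without replicate 1. Birc5 had 0.08, 0.02 and -0.55 with knockout in Cy5 and 0.19 and 0.20 with knockout in Cy3, and a coefficient of -0.17 (SE 0.13). Replicate 5 stood apart from the other values of Birc5, and without it the coefficient was -0.073. Both genes had a limma adjusted p = 1.0, and 0.786 to 1.0 for Aurka and 0.807 to 1.0 for Birc5 over all settings tried.

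Bub1b at 12 days had log2 ratios of 0.045, -0.16 and -0.599 where knockout was in Cy5 and 0.225 and 0.155 where it was in Cy3. Its coefficient was -0.21 (SE 0.12, limma adjusted p = 1.0, and 0.745 to 1.0 over all settings tried). Here too replicate 5 was lowest, and the coefficient was -0.12 without it. The neighbouring spots of the Bub1b probes had a median of -0.615 on replicate 5, and after its subtraction Bub1b lay at 0.016 on that array. The probes gave coefficients of -0.18 and -0.24. Of 10075 features tested at 12 days 0 (0%) passed with limma, while 269 had an unadjusted p under 0.05. Robust empirical Bayes also passed 0. An adjusted p above the threshold does not show that the 4 genes were alike in knockout and wild type.

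Set side by side as knockout relative to wild type, the 4 genes divided in the same way under both readings of the 15-day ratios, with opposite signs. This holds by construction, since the readings differ only in the sign of the 15-day values. By the label reading, which assumes Cy5 over Cy3 at both ages, Aurkb was lower in the knockout on 9 of 9 arrays, by little on 12-day replicate 4. Its means were -1.09 at 15 days and -0.35 at 12 days. Under that reading Aurka, Birc5 and Bub1b were higher in the knockout on all 4 arrays at 15 days and lower on 4, 3 and 4 of the 5 arrays at 12 days. With the 15-day sign turned, Bub1b and Aurka were lower in the knockout on 8 of 9 arrays each and Birc5 on 7 of 9, and Aurkb was higher on 4 of 4 arrays at 15 days and lower on 5 of 5 at 12 days. No single reading gave all 4 genes 1 direction at both ages. Ratios of Cy3 over Cy5 at both ages would reverse every sign of the label reading, with Aurkb higher in the knockout on 9 of 9 arrays.

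**Figure D2:**
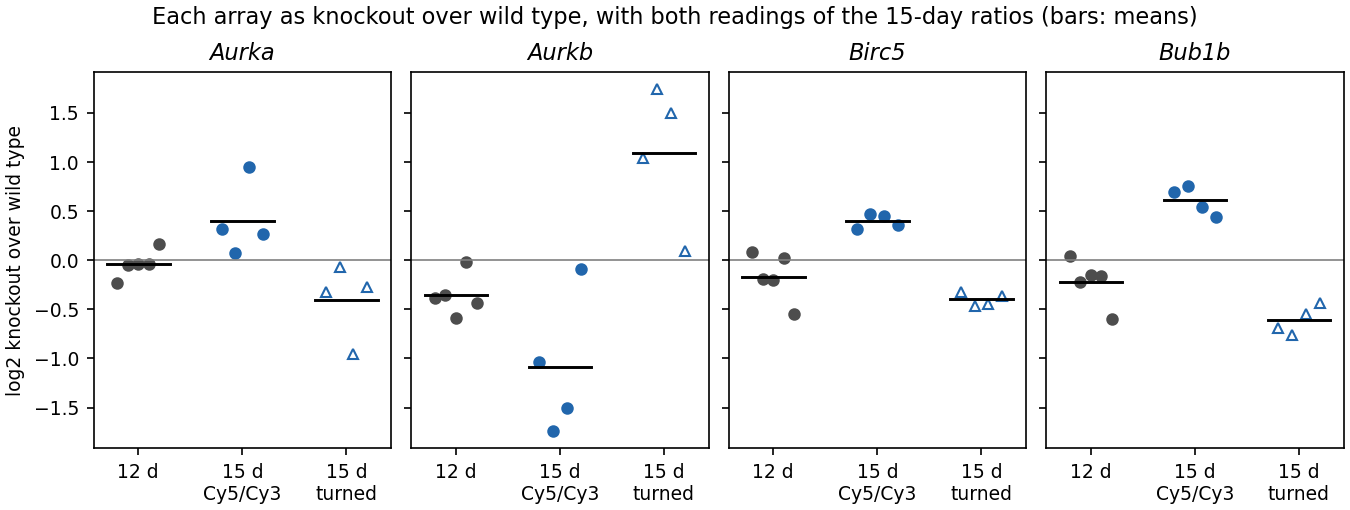
Log2 ratio of knockout over wild type (y axis) for each gene at 12 days by the label reading (grey), at 15 days by the same reading (filled blue) and at 15 days with the sign turned (open triangles), with 1 point per array and bars at the means. The 12-day means run from -0.35 for Aurkb to -0.038 for Aurka, and the 15-day means of Aurkb have the sign opposite to those of the other 3 genes under either reading.

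The difference between the ages, 15 minus 12 days, came from 1 model of all 9 arrays and is given without a test. With a shared dye term it equals the distance of the 15-day mean from the mean of 12-day replicates 2 and 3, which have the same dye orientation. By the label reading it was -0.62 (SE 0.46) for Aurkb, 0.45 (SE 0.25) for Aurka, 0.60 (SE 0.18) for Birc5 and 0.80 (SE 0.19) for Bub1b. With the sign turned it was 1.56 for Aurkb, -0.36 for Aurka, -0.21 for Birc5 and -0.42 for Bub1b, with the same SEs. The first value of Aurkb was -0.96 and -0.41 without 15-day replicates 4 and 2, and -0.15 with quantile normalization and -0.20 with arrays scaled alike. The values of Aurka were 0.27 and -0.18 without 15-day replicate 3. The turned value of Birc5 was -0.11 with quantile normalization and -0.079 with arrays scaled alike, and that of Bub1b was -0.28 with arrays scaled alike.

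Of 8 partners or relatives of the 4 proteins, picked after the values were seen, none passed at 15 days, against 11.2% of all genes. Cdc20 and Kif2c, also tied to the 4 proteins and described below, did pass, so nothing is read from this count. INCENP holds the passenger complex together, and Incenp had -0.035, 0.235, 0.03 and 0.18, on both sides of 0. Cdca8, the gene of borealin, had values on 3 arrays, -0.45, -0.21 and -0.12 on replicates 2 to 4. Aurkc, whose kinase replaces or joins Aurora B in meiosis, had 0.41, 0.02, 0.38 and -0.20, so the third Aurora gene had no common sign. Tpx2 (mean 0.19) and Bora (-0.24), activators of Aurora A, and Bub1 (-0.17), Bub3 (-0.18) and Mad2l1 (-0.13), checkpoint genes that act with Bub1b, also lay short of the threshold, with limma adjusted p from 0.16 to 0.53 over the 8 genes.

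Of 102 genes in 6 lists around the members 14 passed at 15 days, all 14 below 0, as were Aurka, Birc5 and Bub1b, and none above it, the side of Aurkb. That is 13.7% below 0, against 7.2% of all genes tested below 0, and the lists were drawn up with earlier results of these arrays known. The median of the 102 genes was -0.061, against -0.020 for all genes. The same 14 genes passed below 0 with quantile normalization, arrays scaled alike, the local median subtracted, robust empirical Bayes and the median of the probes. Of the 14, 6, 4, 2 and 8 still passed without replicates 1, 2, 3 and 4, and Ccnb2 and Cks2 did so in each case. At an adjusted p under 0.01 and 1.5-fold, the thresholds of the study, Ccnb2 alone passed.

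In the list of the spindle checkpoint and the anaphase promoting complex, to which Bub1b belongs by function, 5 of 30 genes (16.7%) passed the threshold below 0, against 7.2% of all genes, and none passed above it. The means of 20 genes were below 0 and those of 10 above it, with a list median of -0.077. Cdc20, the activator of the complex that BubR1 binds, had log2 ratios of -0.31, -0.29, -0.88 and -0.48, a mean of -0.49 (SE 0.14, limma adjusted p = 0.034). Pttg1, the gene of securin, which holds back separase, had a mean of -0.51 (SE 0.11), and Ttk, a kinase that starts the checkpoint at kinetochores, had -0.48 (SE 0.11). Zwilch, a kinetochore protein of the checkpoint, lay at -0.39 (SE 0.054). Mad2l2, which despite its name is better known as a DNA repair and polymerase subunit, lay at -0.62 (SE 0.20). The 5 genes had limma adjusted p from 0.025 to 0.038, and none of the 5 passed in all 4 fits that left out 1 array.

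Among 20 kinetochore and centromere genes 4 (20%) passed below 0, against 7.2% of all genes, and none passed above it. The means of 13 genes were below 0 and those of 7 above it, with a median of -0.080. Nuf2, a subunit of the NDC80 complex that grips microtubules, had -0.56, -1.19, -0.65 and -0.45, a mean of -0.71 (SE 0.16, limma adjusted p = 0.013). Cenpn (-0.57, SE 0.14), Cenpq (-0.54, SE 0.068) and Dsn1 (-0.41, SE 0.093) also encode kinetochore proteins, the first pair of the inner kinetochore and the last of the MIS12 complex, and each lay below 0 on all 4 arrays. Without replicate 3 none of these 4 genes passed, and without replicate 4 all but Dsn1 did.

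Of 17 genes of mitotic entry 3 (17.6%) passed below 0, against 7.2% of all genes, and none passed above it. The means of 11 genes were below 0 and those of 6 above it, with a median of -0.093. Ccnb2, a B-type cyclin, had -1.23, -1.31, -0.92 and -0.52, a mean of -0.995 (SE 0.18, 1.99-fold, limma adjusted p = 0.0046), the lowest of the 102 genes. Cks2, a small partner of cyclin-dependent kinases, lay at -0.75 (SE 0.17), and Plk4, the kinase of centriole duplication, at -0.40 (SE 0.075), the latter not past the threshold when any 1 array was left out. Cdk1 (-0.0075), Plk1 (0.17) and Ccna2 (0.029), which also act at the entry into mitosis and are named after their values were seen, lay near 0 and did not pass, with limma adjusted p from 0.28 to 0.98.

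The passenger complex and its regulators held 1 gene of 14 past the threshold, and the cytokinesis list none of 16. At 7.14% below 0, the first share was that of all genes (7.2%). The 1 gene was Kif2c, a microtubule-depolymerising kinesin and substrate of Aurora B, with -0.26, -0.31, -0.79 and -0.45, a mean of -0.45 (SE 0.12, limma adjusted p = 0.037), which no longer passed when any 1 of the 4 arrays was left out. In the cytokinesis list the smallest p belonged to Racgap1 (-0.36, SE 0.12, limma adjusted p = 0.069), which passed with quantile normalization (0.048), and Anln (-0.37, SE 0.15, limma adjusted p = 0.086), both of the cleavage furrow. In that list 4 of 16 genes had an unadjusted limma p under 0.05, against 1999 of all 6958 genes, so nothing is read from this count. Of 15 listed genes of apoptosis inhibitors, the family of survivin, and of proteins that oppose or are held by them, 5 were on the array. Among these 5 Diablo passed below 0 (-0.82, SE 0.20, limma adjusted p = 0.011), and the other 4 lay between -0.075 and 0.098. That is 20% below 0, against 7.2% of all genes. Diablo, which relieves caspases from inhibitors of apoptosis, had -1.175, -1.03, -0.82 and -0.27, lowest in size on replicate 4 like Aurkb. It did not pass without replicate 3.

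**Figure D3:**
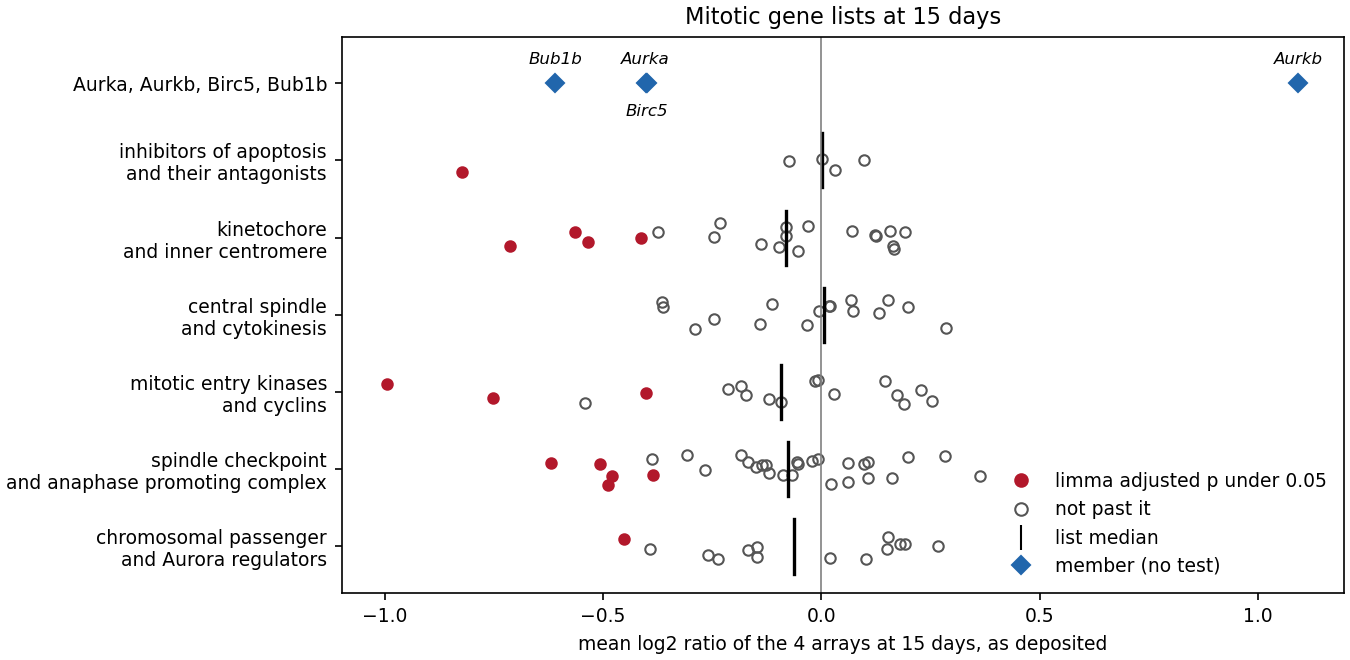
Mean log2 ratio at 15 days as deposited (x axis) of each gene in 6 lists (rows, with the points spread vertically for visibility), filled where limma adjusted p was under 0.05, with the list median as a bar, and the 4 members as diamonds in the top row. The 14 filled points all lie below 0, between -0.995 and -0.39, and no list gene lies as far above 0 as Aurkb at 1.09.

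At 12 days 88 of the list genes could be tested. None passed in limma (0 of 88), and 3 had an unadjusted p under 0.05, against 120 of all 6237 genes. The 88 genes had a median of -0.032, against -0.011 for all genes. Among the 6 pathway lists no median at 12 days was farther from 0 than -0.047.

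The genes nearest to Aurkb across arrays were not in the lists above. Among 5377 genes with a value on all 9 arrays, the 3 nearest to it by the root mean square difference of the deposited log2 ratios were Phf21a (0.24), Malat1 (0.25) and AW215868 (0.27). Malat1, a long noncoding RNA of the nucleus, had 0.93, 1.435, 1.55 and -0.225 at 15 days. Phf21a, a reader of unmethylated histone H3, had 1.26, 2.07, 1.13 and -0.22. Both thus had the high ratios of Aurkb on replicates 1 to 3 and a value slightly below 0 on replicate 4. At 12 days Phf21a had -0.50, 0.06 and -0.205 with knockout in Cy5 and 0.27 and 0.85 with knockout in Cy3.

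For Bub1b the nearest gene was Cenpq (0.13), a kinetochore gene of the lists above, followed by Naa25 and Trmt10a (0.15 each). Cenpq had -0.66, -0.57, -0.57 and -0.34 at 15 days and, like Bub1b, its lowest 12-day value on replicate 5 (-0.47). For Birc5 the nearest were Eif4a2, a translation initiation helicase (0.11), Psmg4, a proteasome assembly chaperone (0.11), and 2310002J21Rik (0.13). For Aurka they were Ccz1 (0.12), Ddx24 (0.14) and Racgap1 (0.14). Among the members themselves, Birc5 and Bub1b were 0.18 apart, Aurka lay 0.35 from Birc5 and 0.41 from Bub1b, and Aurkb lay 1.11 to 1.25 from the other 3 genes. These distances describe 9 arrays and share their spatial and dye patterns.

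**Figure D4:**
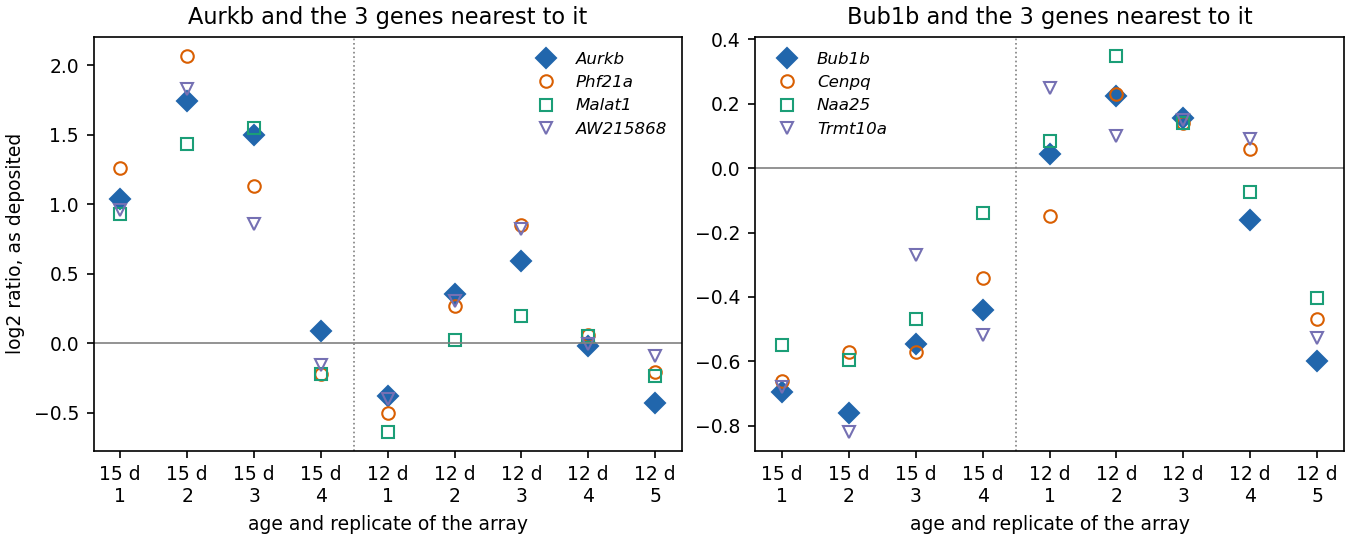
Deposited log2 ratio (y axis) of Aurkb (left) and Bub1b (right) and of the 3 genes nearest to each on the 4 arrays at 15 days and the 5 arrays at 12 days (x axis, 1 position per array). Phf21a, Malat1 and AW215868 are high with Aurkb on 15-day replicates 1 to 3 and lie slightly below 0 on replicate 4, and Cenpq, Naa25 and Trmt10a lie below 0 with Bub1b on all 4 arrays at 15 days and on 12-day replicate 5.

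Markers of germ cell stages and of other testis cells are described for the same arrays. The marker lists, too, were drawn up with earlier results of these arrays known, so nothing is read from their shares of calls. Of 5 pachytene spermatocyte markers measured of 13 listed, all had a mean below 0 and 4 passed (80%, against 7.2% of all genes below 0, median -1.56, array medians from -1.97 to -0.99), among them Rsph1 (-1.73), Lyar (-1.56) and Slc2a3 (-2.16). Of 6 spermatogonial markers measured of 12 listed, 5 had a mean above 0 and 2 passed (33.3%, against 4.04% of all genes above 0), Etv5 (1.20) and Uchl1 (0.36), with a list median of 0.35 and array medians from 0.18 to 0.41. Mybl1 (-0.12) did not pass in the pachytene list, nor did Sall4 (0.35), Gfra1 (0.43), Kit (0.155) and Sohlh1 (-0.025) in the spermatogonial list. Uchl1 did not pass with quantile normalization (limma adjusted p = 0.052) or with the local median subtracted (0.065). At 12 days the medians were -0.27 for the pachytene and -0.036 for the spermatogonial markers, and 0 markers of either list passed (0 at an unadjusted p under 0.05). None of 8 Sertoli cell markers passed (0 at an unadjusted p under 0.05, median 0.048). Of 5 Leydig cell markers Nr5a1 passed (0.43), though not with quantile normalization (limma adjusted p = 0.052). That is 20%, against 4.04% of all genes above 0. The means of 3 Leydig cell markers were above 0 and those of 2 below it, with a median of 0.22. Lum (-0.57) and Col1a1 (0.41) passed in opposite directions among 4 peritubular markers, and with the local median subtracted Col1a1 was at 0.18 and did not pass (0.25). Of 2 macrophage markers Lyz2 passed (-0.61), while C1qa lay on the other side of 0 (0.225) and did not pass. Of 2 endothelial and blood markers Cdh5 passed (0.78) and Pecam1 (0.295) did not. Each is 50% of its list, against 7.2% of all genes below 0 and 4.04% above 0. Rsph1, Lyar, Slc2a3 and Etv5 passed without any 1 of the 4 arrays. The other 6 markers named as passing each lost their call without replicate 3 and without at least 1 other array. The part of these cell types in the ratios of the 4 genes was not tested, and in whole-testis RNA fewer cells of a type and less RNA per cell cannot be told apart.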

How the data were processed

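The ratios of 9 two-channel arrays were used, 4 of 15 days and 5 of 12 days. Per the labels' design text, the authors used a GenePix scanner, flagged spots in its software and median-centred each array, and they called genes by a modified t statistic (SAM) at a 1% false discovery rate and 1.5-fold. The deposited values are log ratios, read here as log2. Their log base and direction, like any background correction, were not given in the sources used here. The median was 0 in each column. No 2 columns were the same as a whole.

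The old platform annotation gave 1 gene for 9604 probes, several for 213 and none for 6311, and 98.9% of the first were found by Entrez ID in a RefSeq table of GRCm38.p6. Probes of a gene were averaged, and probes without 1 gene were kept as features. Tests were limma 3.58.1 in R 4.3.3 (lmFit, eBayes, two-sided, Benjamini-Hochberg over all features, adjusted p under 0.05), at 15 days against 0 with at least 3 values, at 12 days with a knockout coefficient and a dye term, at least 4 values and both orientations. The fits were tested on simulated data.

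The members and lists were chosen with earlier results of these data known. Named were the members, list genes past the 15-day threshold (at most 6 a pathway list and 3 a marker list, and the 2 of smallest p where none passed in a pathway list) and the 3 nearest genes of each member. Other partners, list genes and markers were named after their values were seen. Alternatives covered missing values, quantile normalization, scaling, probe medians, single probes, robust empirical Bayes, stricter thresholds, dye terms, direction, local medians of the 100 nearest spots on each side, and each array left out in turn.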

Additional observations from a re-analysis of the deposited data

Results flagged for a closer look

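With the 15-day sign turned, the Aurkb ratios as knockout over wild type were above 0 on all 4 arrays at 15 days (mean 1.09) and below 0 on all 5 arrays at 12 days (mean -0.35). The difference was not tested. By the label reading all 9 values were below 0. Among 48 genes screened at both ages where values allowed, 3 had 1 array far from the others of its age. Etv5 lay at 1.96 on 15-day replicate 3, Mad2l1 at -0.41 on 15-day replicate 3, and Slc2a3 at -2.36 on 12-day replicate 3, read as knockout over wild type. Chance alone flags about 1 in 20 groups in this way.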

How the results depend on the processing

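Of 196 values of the 4 members under other settings, 194 kept their sign and their side of the threshold where a test was run. The others were for Aurkb and Aurka at 12 days. Aurkb was 0.021 with the deposited ratios taken as knockout over wild type. Aurka ranged from -0.09 to 0.010 when arrays were left out in turn. Many of the 194 could not change, so the count is no measure of stability. For the members, probe medians and requiring a value on every array return the same estimates. Robust empirical Bayes leaves the estimates as they are. The age differences do not depend on the 12-day arrays whose dye orientation differs from that at 15 days. No feature passed at 12 days under any setting, so a kept side of the threshold adds little there. The count of 1515 features at 15 days became 242 at an adjusted p under 0.01 and 1.5-fold, and 357 to 1021 without 1 array (357 without replicate 3). At the stricter threshold the count of called genes was 1 for mitotic entry and 0 for the checkpoint, kinetochore, passenger and apoptosis inhibitor lists. Left out in turn, the arrays gave 0 to 3 checkpoint, 0 to 3 kinetochore, 0 to 0 passenger and 0 to 1 apoptosis inhibitor genes. The passenger list had 2 calls with the local median subtracted and the cytokinesis list 1 with quantile normalization. The median of the passenger list was -0.063, and 0.061 over genes with a value on every array. Each ratio already pairs the knockout and the wild-type sample of 1 array, so the fits are paired within arrays. No further pairing between arrays was possible because the labels number no replicates. The causes of these changes were not tested, except that a stricter threshold on the same fit cannot add calls.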
